A study of Homo sapiens with 8 samples.

Results

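The 10 genes described here encode enzymes that modify collagen after it is translated. They are the lysyl oxidases LOX, LOXL1, LOXL2, LOXL3 and LOXL4, the lysyl hydroxylases PLOD1, PLOD2 and PLOD3, and the prolyl 4-hydroxylase alpha subunits P4HA2 and P4HA3. They were taken by gene symbol from a table of 27696 genes, in which each of the 10 had a single row. All 10 passed the filter on low counts that left 13798 genes for testing. The cells were IMR90, a strain of primary human lung fibroblasts that grows in culture as a single cell type. Recipient IMR90 cells spent 3 days in medium taken from IMR90 ER:RAS fibroblasts, which carry a RAS oncogene fused to an estrogen receptor domain and become senescent when 4-hydroxytamoxifen (4-OHT) is added. Medium was collected at day 0, 4, 7 or 10 of induction, and the recipient cells are called D0, D4, D7 or D10 for the day of their medium, with D0 as the control. Each group has 2 libraries, 1 from each of 2 independent experiments, so that 8 libraries were compared, and all come from 1 cell strain. What was measured is the RNA of the recipient cells and not that of the senescent donors.

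Collagen is hydroxylated in the endoplasmic reticulum before its chains fold into a triple helix. Prolyl 4-hydroxylases, assemblies of catalytic alpha subunits with P4HB, make the hydroxyproline that keeps the helix stable, and lysyl hydroxylases modify lysines in the helix or in the telopeptides at its ends. Outside the cell, the copper-dependent lysyl oxidases convert lysines and hydroxylysines into aldehydes, which then form the crosslinks of collagen and elastin fibers. In fibroblasts these enzymes are known for their part in scar tissue and in stiffening of the matrix.

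Related members resemble each other in sequence, so the stretch of coding sequence most alike within a family is shown first, as a check on whether reads can be assigned to 1 gene. Each line gives 60 bases of a single coding exon from GENCODE 29 transcripts (GRCh38), read 5′ to 3′ on the strand of the gene, with capitals at the bases that are identical in all the sequences printed together with it. For the 3 prolyl 4-hydroxylase alpha subunits, P4HA1 included, 36 bases were identical and 24 differed. The stretches lie on the minus strand at chr11:74268146-74268205 (P4HA3, exon 12), chr5:132194927-132194986 (P4HA2, exon 15) and chr10:73009808-73009867 (P4HA1, exon 14).
P4HA3: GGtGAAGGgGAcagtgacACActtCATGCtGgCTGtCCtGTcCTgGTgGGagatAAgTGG
P4HA2: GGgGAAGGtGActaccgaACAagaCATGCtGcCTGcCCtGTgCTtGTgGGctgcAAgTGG
P4HA1: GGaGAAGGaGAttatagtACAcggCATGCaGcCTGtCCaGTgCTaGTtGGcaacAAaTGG
Over their aligned coding sequences P4HA3 had 50.2% of bases identical with P4HA2 and 48.4% with P4HA1, whereas P4HA2 and P4HA1 had 63.2%. Over whole transcripts, the longest run shared between P4HA3 and either of the other subunits was 12 bases, and that between P4HA2 and P4HA1 was 17.

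The same comparison for the lysyl oxidases gave a stretch in the catalytic part of the protein, where 39 bases were identical and 21 differed among LOX (chr5:122070494-122070553, minus strand, exon 5), LOXL1 (chr15:73947843-73947902, plus strand, exon 5), LOXL3 (chr2:74534100-74534159, minus strand, exon 12) and LOXL4 (chr10:98251566-98251625, minus strand, exon 13). The sequence of LOXL2 is not printed and did not enter these counts.
LOX: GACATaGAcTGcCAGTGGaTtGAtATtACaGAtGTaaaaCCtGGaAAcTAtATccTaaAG
LOXL1: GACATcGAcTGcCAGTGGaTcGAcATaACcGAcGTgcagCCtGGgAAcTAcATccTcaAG
LOXL3: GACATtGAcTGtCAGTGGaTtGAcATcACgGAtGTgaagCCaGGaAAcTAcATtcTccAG
LOXL4: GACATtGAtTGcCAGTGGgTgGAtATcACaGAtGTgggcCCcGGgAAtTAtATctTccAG
Coding identity between lysyl oxidases was between 45.9% (LOX and LOXL4) and 65.1% (LOXL2 and LOXL4), and the longest run shared between whole transcripts was 26 bases, in LOXL3 and LOXL4. Among lysyl hydroxylases coding identity was between 58.3% and 67.1%, with runs of at most 17 bases shared between whole transcripts. No 50-base word of the transcripts of any of the 10 genes occurred in another of them. LOXL3 shared 14.6% of its words with its overlapping neighbors DOK1 and HTRA2, and P4HA3 shared 3.25% of its words, with PPME1 among other genes. PLOD3 shared 6.11% (ZNHIT1 among others), P4HA2 5.93% (P4HA2-AS1 among others) and LOXL1 5.56% (LOXL1-AS1). In each other member the share was at most 3.81% (LOXL2).

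Total counts per library were between 11708193 and 13395912, and expression is given below as CPM, counts scaled to a common library size with TMM factors from edgeR. Fibroblast markers were abundant in all libraries, and epithelial and leukocyte markers had at most 11 and 33 counts in total in any library. Of the 5 endothelial markers TEK had up to 120.5 CPM, and the other markers had at most 2.37 CPM. The 8 fibroblast markers, COL1A1, COL1A2 and COL3A1 among them, summed to between 32609 and 46255 CPM at D0 and to 9633 and 34111 CPM at D10, with the lower value in experiment 2. In bulk RNA, a smaller number of cells that express a gene and a lower amount of its RNA per cell cannot be told apart. Nothing states that the libraries of a group came from more than 1 culture per experiment, so p-values describe the spread between these libraries.

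P4HA3 was the only gene of the set that was called as different between groups, with limits on that call given below. It encodes the third known alpha subunit of collagen prolyl 4-hydroxylase and lies on chromosome 11 from 74235801 to 74311657 (ENSG00000149380.11, minus strand). In experiments 1 and 2 it had 3.60 and 4.15 CPM in D0 cells, 7.29 and 5.89 in D4, 6.72 and 10.5 in D7, and 19.1 and 21.9 in D10, from 43 and 57 counts at D0 to 241 and 278 counts at D10. Both D10 libraries were above every other library, both D0 libraries were below every other library, and the D4 and D7 values overlapped. Mean expression was 3.88 ± 0.386 CPM (SD, n = 2) in D0 cells, 6.59 ± 0.993 in D4, 8.60 ± 2.66 in D7 and 20.5 ± 2.01 in D10. The fold between the D10 and D0 means was 5.29, and the log2 fold change within each experiment was 2.40 in both.

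At D10 the log2 fold change of P4HA3 was 2.40 (SE 0.32, 95% confidence interval 1.67 to 3.13), with an adjusted p of 0.0399 (edgeR, quasi-likelihood, Benjamini-Hochberg over all genes tested). It was the 1 member called of 10, whereas 0.29% of all tested genes were called. With the experiment as a replicate block the adjusted p was 0.00188, again with 1 member called, and the block called 4.99% of all genes. DESeq2 also called this 1 member, among 2.83% of all genes. The adjusted p was close to the threshold in the fit without the block: it was above 0.05 when any library other than D10 of experiment 1 was left out (0.0538 to 0.254), with only the D0 and D10 libraries in the fit (0.12) and with scaling by library totals (0.0611). In all 16 alternatives the log2 fold change was between 2.30 and 2.51.

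**Figure D1:**
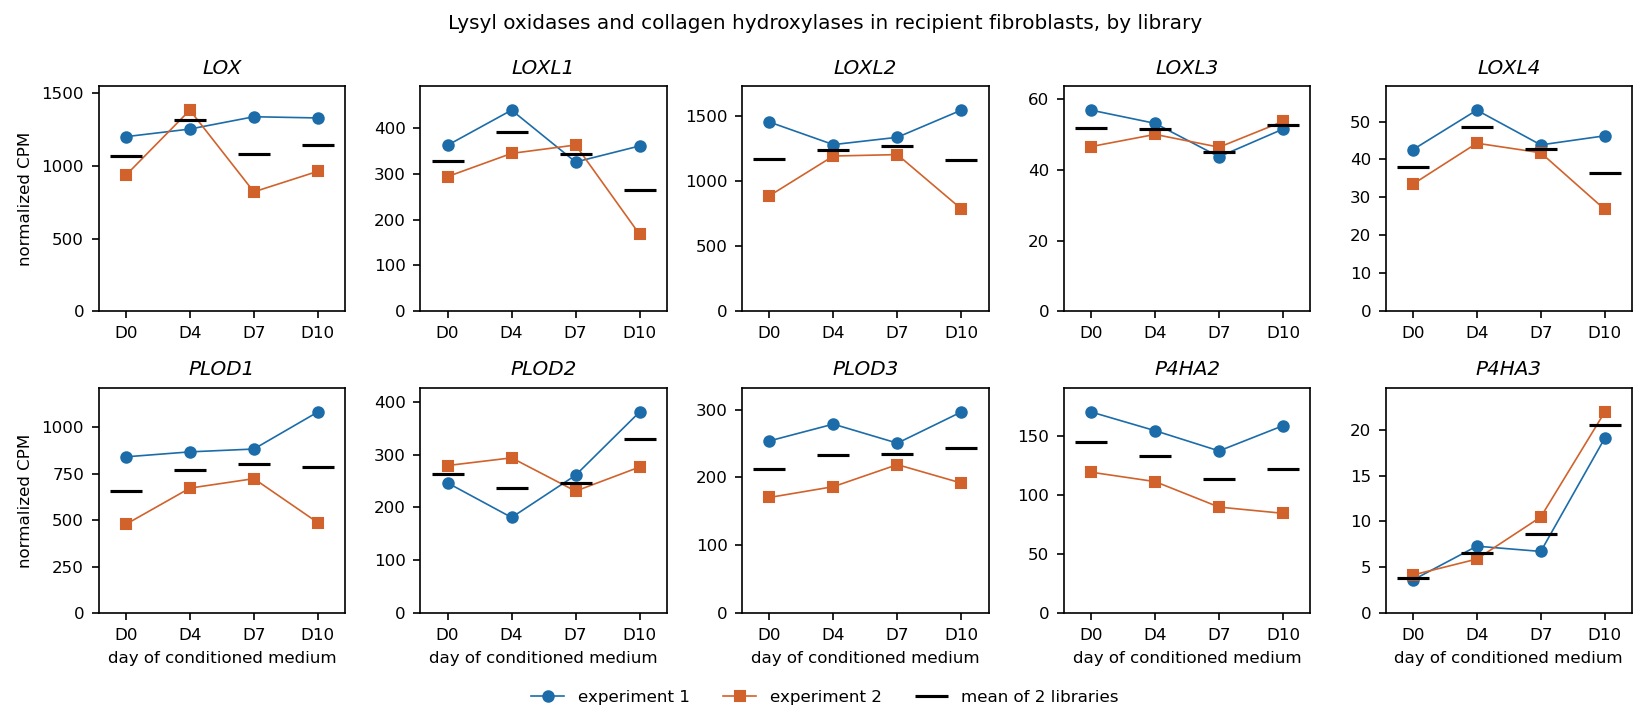
Normalized CPM (vertical axis, from 0) of each of the 10 genes in the 4 groups (horizontal axis), with circles for experiment 1, squares for experiment 2 and a black bar at the mean of the 2 libraries. P4HA3 sits between 3.60 and 10.5 CPM in the D0, D4 and D7 libraries and at 19.1 and 21.9 CPM in the D10 libraries, while the lines of the other genes cross or stay apart by experiment.

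On the earlier days P4HA3 was also above D0 in both experiments, but it did not pass the test. At D4 its log2 fold change was 0.76 (SE 0.31), with p-values from edgeR of 0.0402 before and 1 after adjustment. At D7 it was 1.15 (SE 0.31), with p-values from edgeR of 0.00624 before and 0.579 after adjustment. The replicate block lowered the adjusted p-values to 0.435 at D4 and 0.1 at D7. DESeq2 with the block, but not without it, called P4HA3 at D7, with an adjusted p of 0.0252. In that setting 358 of 13798 genes were called. No member was called at D4 or D7 by edgeR with or without the block or by DESeq2 without it, and the share of all genes called by edgeR without the block was 0% on both days. With the block it was 0.275% at D4 and 1.25% at D7, and by DESeq2 without the block it was 0.341% and 0.848%. At an unadjusted p under 0.05, P4HA3 was the 1 member at D4 in both edgeR fits, against 2.96% of all genes without and 8.15% with the block. At D7 it was joined by P4HA2 when the block was used, and the shares of all genes were 4.34% and 10.6%.

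Expression of P4HA3 was higher with medium of D10 than with medium of D4, by 1.64 on the log2 scale (SE 0.30). In edgeR's fit without the block this comparison had an adjusted p of 0.23, and 0 members and 0.00725% of all genes were called. With the experiment as a block the log2 difference was 1.63 and the adjusted p 0.0154, so that 1 member was called against 2.55% of all genes. DESeq2 gave an adjusted p of 0.00285 and called 1.14% of all genes. Over the 4 days of medium as a number, P4HA3 had a slope of 0.23 log2 units per day (SE 0.03), with an adjusted p of 0.00776 from edgeR and of 0.00256 with the block. It was the 1 member with a slope called, against 1.18% of all genes without the block, 4.3% with it and 3.58% by DESeq2. Without D0 of experiment 1 the slope was 0.23 and its adjusted p 0.0524.

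Of the exon bases of P4HA3, 5.09% are covered on the opposite strand by P4HA3-AS1 or PPME1. Whether counting used strand is not given in the sources used here, so reads from the shared bases cannot be assigned with certainty. P4HA3-AS1 had at most 3 counts in any library. PPME1, which encodes a protein phosphatase methylesterase, had 102 and 78.6 CPM at D0 and 66.4 and 65.5 CPM at D10, and its log2 fold change of -0.46 had an adjusted p of 0.834 from edgeR.

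P4HA2, the other alpha subunit of the set, is on chromosome 5 from 132191838 to 132295315 (ENSG00000072682.18). In experiments 1 and 2 it had 171 and 119.5 CPM in D0 cells, 155 and 112 in D4, 138 and 89.9 in D7, and 159 and 84.6 in D10. It was lower than D0 on each day in both experiments, but the groups overlapped, since the D0 library of experiment 2 was below the 3 libraries of other days in experiment 1. Between the D0 libraries the difference of experiment 2 from experiment 1 was -0.51 on the log2 scale. Its log2 fold changes on the 3 days were -0.12, -0.35 and -0.25, with adjusted p-values of 1, 1 and 0.998 from edgeR. With the block it was -0.36 at D7 (95% confidence interval -0.71 to -0.01, unadjusted p = 0.044, adjusted p = 0.455), so a lower level was not shown over all genes.

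P4HA1, which encodes the most widely expressed alpha subunit and is not among the 10 genes, puts these levels on a common scale. It had 255 and 218 CPM at D0 and 311 and 153 CPM at D10, with a log2 fold change of -0.03 and an adjusted p of 0.998 from edgeR. CPM was divided by the length of each gene's principal transcript (2274 bases for P4HA3, 3349 for P4HA2 and 2844 for P4HA1) to compare levels between genes. On this scale P4HA3 had 1.71 ± 0.170 CPM per kilobase at D0 and 9.02 ± 0.886 at D10 (SD, n = 2). Its share of the summed level of the 3 subunits was 1.11% and 1.60% in D0 cells, 2.57% and 2.12% in D4, 2.44% and 5.01% in D7, and 5.08% and 10.9% in D10. In the D10 libraries of experiments 1 and 2, P4HA3 had 8.39 and 9.64 CPM per kilobase. P4HA1 had 109.4 and 53.6 in these libraries, and P4HA2 had 47.5 and 25.3. The larger share at D10 in experiment 2 therefore went mostly with lower levels of P4HA1 and P4HA2. P4HA3 thus remained the least abundant of the 3 transcripts in each library. P4HA1 made up between 60.5% and 70.6% of the sum, and P4HA2 between 27.3% and 37.0%. With lengths of all exons of a gene in place of one transcript, the mean share of P4HA3 went from 1.04% at D0 to 6.14% at D10, and over the libraries P4HA1 took between 76.2% and 84.4% and P4HA2 at most 20.3%.

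**Figure D2:**
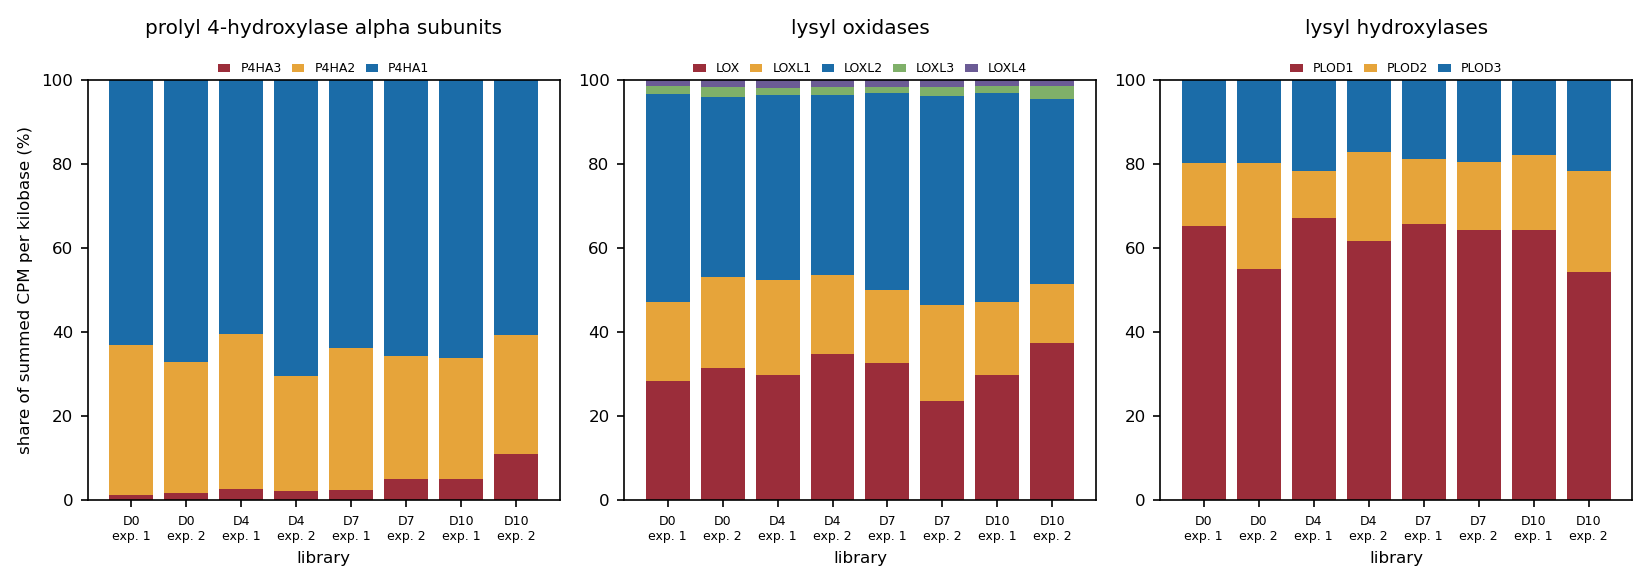
Share of the summed CPM per kilobase (vertical axis, percent) that each gene of a family takes in each of the 8 libraries (horizontal axis), with lengths of principal transcripts. The P4HA3 segment goes from 1.11% and 1.60% in the D0 libraries to 5.08% and 10.9% in the D10 libraries, and the leading gene of the lysyl oxidases and of the lysyl hydroxylases is LOXL2 and PLOD1 in each library.

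None of the 5 lysyl oxidases was called on any day, in either edgeR fit or by DESeq2. At D10 their log2 fold changes were between -0.31 (LOXL1) and 0.10 (LOX), with a median of -0.01, and the median of all tested genes was 0.00. LOX, whose proenzyme is cleaved by BMP1 outside the cell, had 1201 and 935 CPM in D0 cells, 1253 and 1383 in D4, 1338 and 821 in D7, and 1329.7 and 963 in D10. Both D4 libraries were above both D0 libraries, and on the later days 1 library was above and 1 within the range of D0 or below it. The log2 fold change of LOX was 0.30 at D4 (SE 0.33), 0.02 at D7 and 0.10 at D10 (95% confidence interval -0.67 to 0.87).

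LOXL1, which is needed for the upkeep of elastic fibers, had 363 and 294 CPM in D0 cells, 439 and 345 in D4, 326 and 363 in D7, and 361 and 168 in D10. The D10 library of experiment 2 was the lowest of the 8, and that of experiment 1 was close to its D0 library, so that the D10 values lay on both sides of D0 of experiment 2. The log2 fold change was 0.26 at D4 and -0.31 at D10 (SE 0.37). Against D4, LOXL1 at D10 was -0.57 without and -0.62 with the block, with an unadjusted p of 0.0459 and an adjusted p of 0.263 from edgeR in the latter.

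LOXL2, LOXL3 and LOXL4 share scavenger receptor domains that LOX and LOXL1 lack. LOXL2 had 1456 and 889 CPM in D0 cells, 1282.5 and 1195 in D4, 1339 and 1206 in D7, and 1548 and 788 in D10. The D4 and D7 values thus lay between the D0 libraries, and the D10 libraries lay outside them on both sides. Its log2 fold change at D10 was -0.01 (95% confidence interval -0.90 to 0.89), and its sign depended on the scaling. LOXL3 was the most even of the 10 genes, with a coefficient of variation of 8.82% over the 8 libraries. It had 57.0 and 46.7 CPM in D0 cells, 53.2 and 50.1 in D4, 43.8 and 46.5 in D7, and 51.6 and 53.8 in D10. Both D7 libraries were below both D0 libraries, with a log2 fold change of -0.20, but within experiment 2 it was -0.01. Of the exon bases of LOXL3, 19.3% are overlapped on the opposite strand by DOK1 or HTRA2, which limits the certainty of its counts.

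LOXL4 had 42.6 and 33.5 CPM in D0 cells, 53.0 and 44.3 in D4, 43.8 and 41.8 in D7, and 46.2 and 26.8 in D10. Both D4 libraries were above both D0 libraries, and the D10 libraries enclosed them. The log2 fold change was 0.36 at D4 (SE 0.29, adjusted p = 1 from edgeR) and -0.06 at D10. Against D4, LOXL4 at D10 was -0.44 with the block (unadjusted p = 0.0364, adjusted p = 0.241 from edgeR).

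Per length of transcript, LOXL2 took 46.3% ± 4.60 of the summed level of the 5 lysyl oxidases at D0 and 46.8% ± 4.05 at D10 (SD, n = 2). LOX followed with 30.0% ± 2.20 and 33.5% ± 5.44, and LOXL1 with 20.1% ± 2.04 and 15.8% ± 2.37. LOXL3 and LOXL4 together stayed minor, with means between 1.45% and 2.36% each in the 4 groups. The order of LOX and LOXL2 rested on the length used, since with all exons counted LOX had 40.5% and LOXL2 36.9% at D4, and 38.0% and 39.7% at D0.

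The 3 lysyl hydroxylases had positive log2 fold changes at D10, of 0.25 for PLOD1, 0.32 for PLOD2 and 0.20 for PLOD3, but none was called in either edgeR fit or by DESeq2. PLOD1, which hydroxylates lysines of the collagen helix, had 841 and 478 CPM in D0 cells, 868 and 673 in D4, 883 and 724 in D7, and 1083 and 487 in D10. It was higher than D0 on each day in both experiments, by 0.36 on the log2 scale at D10 in experiment 1 and by 0.03 in experiment 2. Experiment 2 was below experiment 1 in each group, and the 95% confidence interval at D10 was -0.75 to 1.25 without and -0.32 to 0.75 with the block.

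PLOD2 encodes the telopeptide lysyl hydroxylase, whose product leads to pyridinoline crosslinks. It had 246 and 279 CPM in D0 cells, 181 and 294 in D4, 261 and 231 in D7, and 381 and 276 in D10. The D10 library of experiment 1 was the highest of the 8, and that of experiment 2 was within the range of D0. The log2 fold change at D10 was 0.63 in experiment 1 and -0.01 in experiment 2, and 0.32 in the fit (SE 0.30, adjusted p = 0.998 from edgeR). Counts are per gene, so that the splice forms of PLOD2 were not separated.

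PLOD3 encodes an enzyme that also transfers sugars to hydroxylysine. It had 254 and 170.4 CPM in D0 cells, 279 and 186 in D4, 250.5 and 219 in D7, and 296 and 192 in D10. It was higher at D10 than at D0 in both experiments, by 0.22 and 0.17 on the log2 scale, and all 4 libraries of experiment 2 were below all 4 of experiment 1. The adjusted p at D10 was 0.998 from edgeR, and 0.585 with the block. Per length of transcript PLOD1 took 60.1% ± 7.21 of the summed level of the 3 genes at D0 and 59.3% ± 7.20 at D10, with PLOD2 at 20.2% ± 7.26 and 21.1% ± 4.55 and PLOD3 at 19.8% ± 0.0448 and 19.6% ± 2.65 (SD, n = 2).

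**Figure D3:**
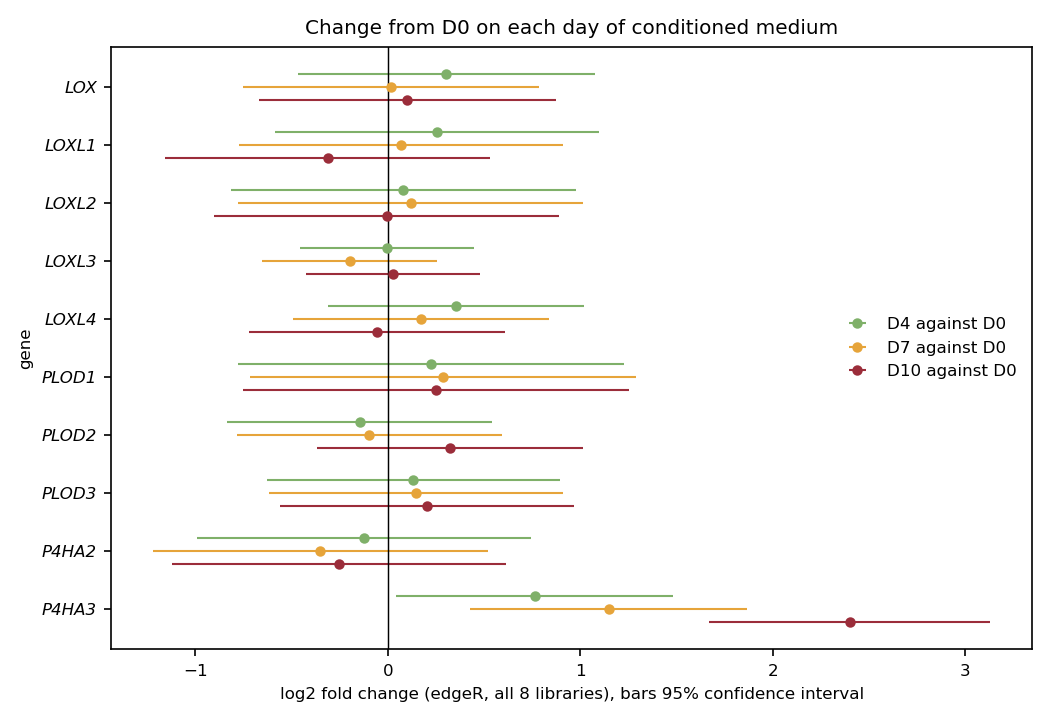
Log2 fold change of each gene against D0 (horizontal axis) at D4, D7 and D10, from edgeR's fit of all 8 libraries without a block, with bars for the 95% confidence interval. The D10 interval of P4HA3 runs from 1.67 to 3.13, and the intervals of the other 9 genes include 0 on each day.

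For the 9 genes other than P4HA3, the log2 fold changes at D10 were between -0.31 and 0.32, with SEs between 0.20 and 0.43. Their lowest adjusted p was 0.998 from edgeR and 0.367 with the block, and the 95% confidence intervals reached from -1.16 to 1.25 over these genes without the block and from -0.97 to 0.91 with it. Changes of up to these sizes could not be told from no change with 2 libraries per group. The libraries of 2 groups did not overlap for 3 members at D4 (P4HA3, LOX and LOXL4, all above D0), for 2 at D7 (P4HA3 above and LOXL3 below) and for P4HA3 alone at D10. Over all tested genes, the groups did not overlap for 22.3%, 28.9% and 31% on these days.

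Several members differed between the experiments. LOXL2, LOXL4, PLOD1, PLOD3 and P4HA2 were lower in experiment 2 than in experiment 1 in all 4 groups. The difference was widest at D10 for LOXL1 (-1.10), LOXL2 (-0.97), LOXL4 (-0.79), PLOD1 (-1.15), PLOD3 (-0.63) and P4HA2 (-0.91), on the log2 scale. P4HA3 differed by 0.20 at D0 and 0.20 at D10 between experiments, in the direction of experiment 2. The lower sum of the fibroblast markers was in the D10 library of experiment 2, and its part in the values of the 9 genes was not tested. In experiment 1 the markers summed to 46255 CPM at D0 and 34111 CPM at D10, and their part in the change of P4HA3, 2.40 in both experiments, was not tested either.

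**Figure D4:**
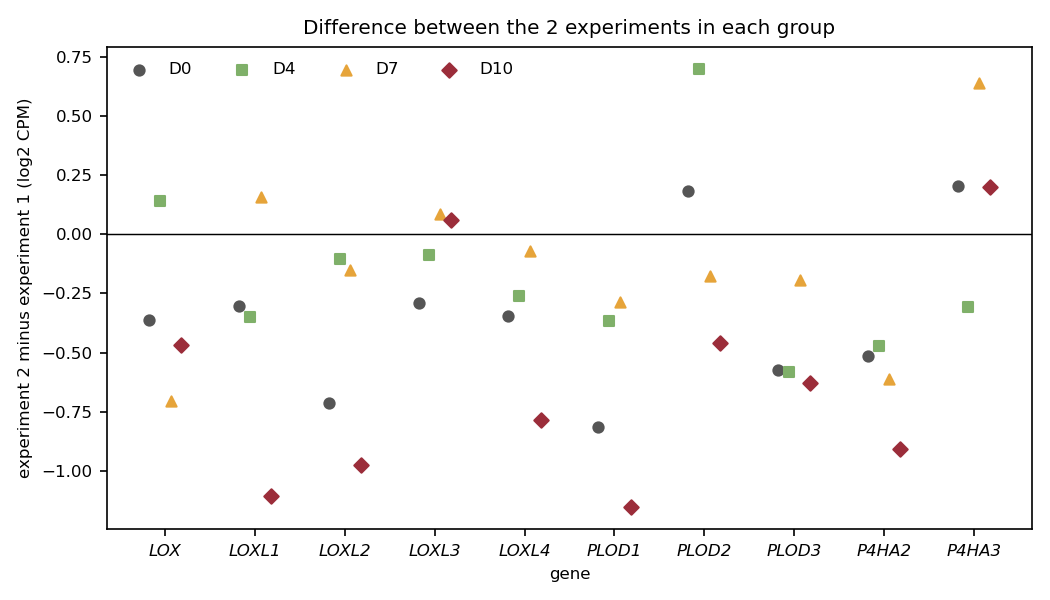
Difference between experiment 2 and experiment 1 in log2 CPM (vertical axis) for each gene (horizontal axis), with a symbol for each group. For LOXL1 and PLOD1 the D10 symbols lie below -1, while those of P4HA3 lie between -0.31 and 0.64.

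Of the 51 other genes of the pathway that were listed, 45 were tested. At D10, 0 were called by edgeR without the block, 4 with the block and 1 by DESeq2. At an unadjusted p under 0.05 from edgeR there were 5 without and 11 with the block. The shares of all tested genes called at D10 are 0.29%, 4.99% and 2.83% as given above, and at an unadjusted p under 0.05 they were 7.94% without and 18.2% with the block, so the counts are not read as particular to these genes. Their median log2 fold change was -0.03, beside 0.00 for all tested genes. Of 17 other genes that modify or fold collagen, the block called SERPINH1, which encodes the collagen chaperone HSP47. It had 1035 and 621 CPM at D0 and 617 and 358 CPM at D10, and its log2 fold change was -0.77 with the block (adjusted p = 0.0358) and -0.76 without it (adjusted p = 0.807, from edgeR). The list had a median of 0.10, and its widest change was that of TMEM38B, which encodes an ion channel of the endoplasmic reticulum (8.21 and 9.61 CPM at D0, 12.03 and 24.8 at D10, log2 fold change 1.05, adjusted p = 0.435). P4HB, the shared partner of the alpha subunits, had a log2 fold change of 0.18 (SE 0.47). FKBP10, a partner of PLOD2, had a log2 fold change of 0.50 (SE 0.32, adjusted p = 0.921 from edgeR).

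None of the 5 tested genes for procollagen processing, of 8 listed, was called by edgeR in either fit, with 1 at an unadjusted p under 0.05 without and 2 with the block, and none by DESeq2. Their median was -0.20, with PCOLCE, which enhances the cleavage of the C-propeptide, at -0.97 (adjusted p = 0.62 from edgeR). Of 7 partners of the lysyl oxidases and genes of copper supply, the block called FBLN5, whose product binds LOXL1 in elastic fibers. FBLN5 had 279 and 206 CPM at D0 and 173 and 134 at D10, with a log2 fold change of -0.66 (adjusted p = 0.0321 with the block and 0.535 without it, from edgeR). The median of the list was -0.19.

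Among the crosslinked substrates 7 of 8 genes were tested, with a median of -0.82. The block called COL11A1, a minor fibrillar collagen chain, and so did DESeq2. It had 3.44 and 17.7 CPM at D0 and 1.03 and 1.18 CPM at D10, and its log2 fold change was -3.25 (adjusted p = 0.309) without and -2.99 (adjusted p = 0.015) with the block, from edgeR. COL1A1 had 14499 and 8694 CPM at D0 and 9432 and 1295 CPM at D10, with a log2 fold change of -1.11 (SE 0.77, adjusted p = 0.967 from edgeR). Of 9 tested hypoxia response genes, chosen because several of the enzymes are known targets of hypoxia-inducible factors, the block called VEGFA, the angiogenic growth factor, with 62.8 and 97.5 CPM at D0 and 97.2 and 232 CPM at D10. Its log2 fold change was 1.04 without (adjusted p = 0.652) and 0.96 with the block (adjusted p = 0.0213, from edgeR), and the median of the list was 0.14. Of the fibroblast markers, PDGFRB and DCN were lower at D10 with the block, with adjusted p-values of 0.0181 and 0.0362 from edgeR. Without the block these were 0.151 and 0.484. All 8 markers were below D0 in both experiments, and the share of all tested genes that were so was not counted.

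**Figure D5:**
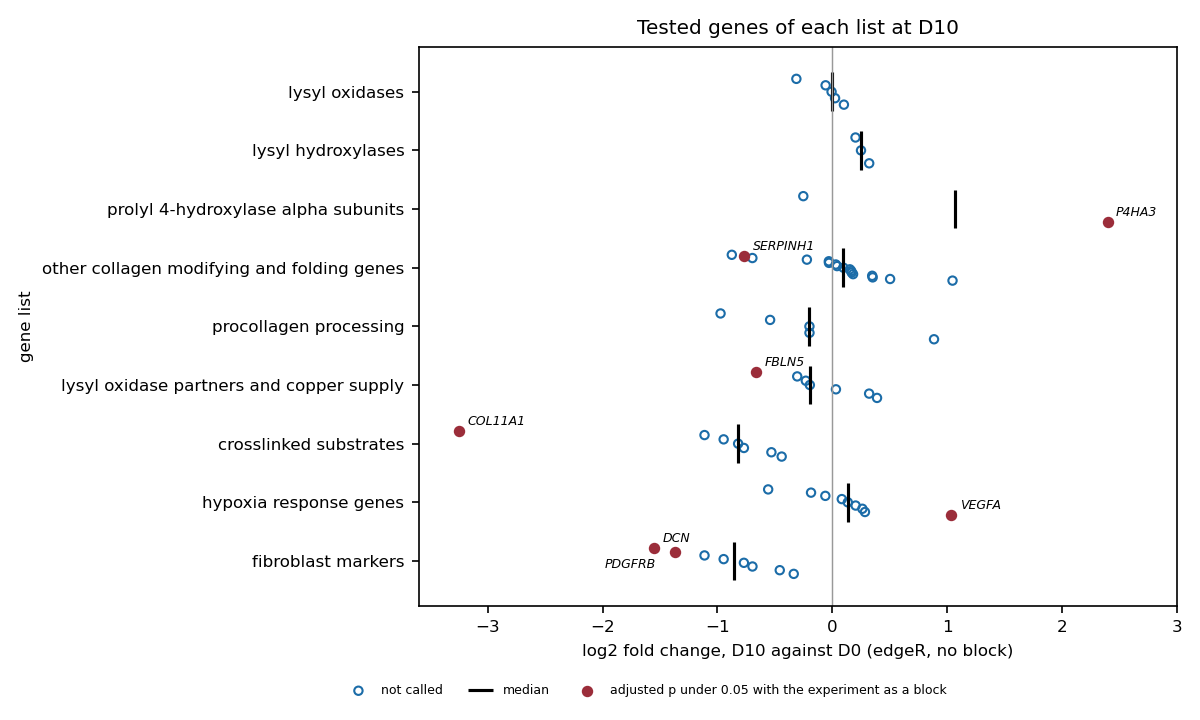
Log2 fold change at D10 against D0 (horizontal axis) for the tested genes of each list (vertical axis), from edgeR's fit without a block, with a black line at the median and filled points for genes at an adjusted p under 0.05 in the fit with the experiment as a block. P4HA3 at 2.40 stands apart from P4HA2 at -0.25, and the substrates lie below 0, with a median of -0.82.

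The 3 tested genes whose pattern was most like that of P4HA3, by Pearson's r of log2 CPM over the 8 libraries after the mean of each experiment was subtracted, were CRELD1 (r = 0.993), ZFYVE27 (r = 0.990) and ISG20 (r = 0.990). CRELD1 had 44.1 and 32.3 CPM at D0 and 73.4 and 58.1 at D10. Pearson's r does not depend on the size of a change. At D10 the log2 fold changes from edgeR were 0.78 for CRELD1, 0.32 for ZFYVE27 and 1.96 for ISG20. ISG20 had few reads, with 0.25 and 0.66 CPM at D0 and 1.27 and 2.37 at D10. With 8 libraries, 45 genes had an r above 0.95, and these correlations describe the libraries only. Between P4HA3 and the other members r was between -0.67 (P4HA2) and 0.67 (PLOD3).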

How the data were processed

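RNA of 8 libraries was analysed. Per the labels, poly(A) RNA was made into stranded libraries, and STAR 2.5, DESeq2 and GRCh38 are named in the submitters' processing notes. The counting tool, its annotation and strand setting are not given in the sources used here. The analysis starts from raw read counts that the authors deposited for each gene. RPM values, also deposited, were not used. A column headed DO was taken as D0 replicate 1.

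Counts were filtered with filterByExpr and scaled with TMM, and a quasi-likelihood model of all 8 libraries, by group or by day of medium as a number, was fitted in edgeR 4.0.16 (glmQLFit, glmQLFTest) under R 4.3.3. The threshold was an adjusted p (Benjamini-Hochberg) of 0.05. SEs for edgeR were back-calculated as the absolute log2 fold change divided by the square root of the F statistic of the test. The 95% confidence intervals used these SEs and a single t quantile for all genes of a fit, from the median prior and the residual degrees of freedom. A fit with the experiment as replicate block, DESeq2 1.42.0, other scalings and filters, and leaving out each library were alternatives. The replicate numbers pair the libraries: the methods describe 2 independent experiments, and libraries with the same number deviated from their groups together (r across genes 0.418 to 0.722 over 6 pairs of groups). The 2 libraries of each group differed by more than sampling noise. Positions and transcripts are from GENCODE 29, which holds 99.6% of the identifiers, and coding sequences were aligned with MAFFT 7.526. The fits were also run on simulated counts, as a check of the sign and size of the estimated changes only. No requirement was set on missed or false calls. Figures were drawn with matplotlib 3.10.9.

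The members and gene lists were chosen with earlier results of these data known. All 10 members are named, and from each other list the genes past the threshold at D10 with or without the block and the one with the widest change. SERPINH1, FBLN5, COL11A1, VEGFA, PDGFRB and DCN are the former. P4HA1, P4HB, FKBP10 and COL1A1 are named as partners or substrates of the enzymes, after their values were seen.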

Additional observations from a re-analysis of the deposited data

Results flagged for a closer look

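P4HA3 differed between D10 and D4 by 1.63 on the log2 scale in edgeR's fit with the experiment as a block (adjusted p = 0.0154), where the days of medium differ from each other and not just from D0. Without the block the log2 difference was 1.64 and the adjusted p 0.23, and P4HA3 was higher at D10 in both experiments, by 1.39 and 1.90.

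LOXL1 was above D0 at D4 and below D0 at D10 in both experiments, and the mean of the log2 change at D10 minus that at D4 was -0.66. The log2 change at D10 was -0.81 in experiment 2 and -0.01 in experiment 1. The direct comparison of D10 with D4 did not pass (adjusted p = 0.973 without and 0.263 with the block, from edgeR).

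Groups of 2 libraries are too small for a test of an outlying sample.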

How the results depend on the processing

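With 2 libraries per group, the number of calls rested on the model for the spread. Of 13798 tested genes, 40 were called at D10 by edgeR without the block, 688 with the replicate block and 25 with library totals alone. DESeq2 called 390 of the 13798 without and 962 with the block. Other filters or groups changed the number tested. Called were 371 of 27696 genes without a filter, 20 of 12140 with at least 10 counts in every library, and 0 of 13365 with the compared groups only. The corresponding counts for the replicate block were 38 at D4, 172 at D7, 352 for D10 against D4 and 593 for the trend.

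Of the 10 members, 1 was called at D10 (P4HA3). The count was 0 with library totals alone and with the compared groups only, and 0 to 1 when a library was left out. At D7 DESeq2 with the replicate block called 1 member, and every other alternative 0. For D10 against D4, DESeq2, DESeq2 with the block, edgeR without a filter and the replicate block each called 1 member in place of 0. Over all tested genes these settings called 157, 729, 147 and 352, of 27696 without a filter and of 13798 in the others. At D7 DESeq2 with the block called 358 of 13798. For the trend the count was 0 to 1 when a library was left out, and at D4 it was 0 under each alternative. A library left alone in its group was assumed to vary like the others. The block pairs the libraries of an experiment and changed no other call of a member. The log2 fold change of P4HA3 at D10 was between 2.30 and 2.51 in all 16 alternatives, and 7 of these called it.

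Members that were not called changed sign under some alternatives. LOXL3 at D4 was 0.0121 with DESeq2's size factors, 0.0123 with DESeq2, 0.0144 with DESeq2 and the block and 0.00183 without a filter. LOX at D7 was -0.00488 with the block. LOXL2 at D10 was 0.000698 with DESeq2's size factors and 0.000699 with DESeq2, 0.00777 with library totals and 0.00506 with the compared groups only. When a library was left out, log2 fold changes that changed sign ranged at D4 from -0.23 to 0.48 (LOXL2), -0.14 to 0.15 (LOXL3), -0.13 to 0.69 (PLOD1), -0.54 to 0.16 (PLOD2), -0.19 to 0.45 (PLOD3) and -0.38 to 0.16 (P4HA2). At D7 they ranged from -0.37 to 0.33 (LOX), -0.0754 to 0.23 (LOXL1), -0.20 to 0.52 (LOXL2), -0.0673 to 0.75 (PLOD1) and -0.11 to 0.46 (PLOD3). At D10 they ranged from -0.13 to 0.32 (LOX), -0.95 to 0.14 (LOXL1), -0.55 to 0.40 (LOXL2), -0.12 to 0.18 (LOXL3), -0.49 to 0.28 (LOXL4), -0.42 to 0.72 (PLOD1), -0.13 to 0.52 (PLOD3) and -0.76 to 0.13 (P4HA2). The cause was not tested. The trend has no fit of compared groups only, since it uses all groups.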
